A study of Drosophila melanogaster with 27 samples.

Results

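The mRNAs described here encode the core of the TOR growth pathway of the fly: Tsc1, gig, Rheb, Tor, raptor, rictor, Akt, S6k and Thor. These 9 genes were taken by their FlyBase symbols from a count table of 17807 genes, of which 11469 had enough reads to be tested, and all 9 were among those tested. They were chosen as a known pathway of translation control, but Tsc1 was also chosen because it lay steadily above the IgG background in these libraries. For that reason its pull-down values are given as a description, with no test. The choice names no measured value of the other members.

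In this pathway the TSC complex, built from Tsc1 and the gig product (the fly Tsc2), keeps the small GTPase Rheb inactive, and active Rheb turns on the kinase Tor. Tor works in a complex with raptor, which drives growth and protein synthesis through S6 kinase (S6k) and the eIF4E-binding protein Thor, and in another with rictor, which phosphorylates Akt. Akt, downstream of the insulin receptor, in turn restrains the TSC complex. Fmr1 is the fly homologue of the fragile X protein, an RNA-binding protein that represses translation in neurons. Ythdf is a reader of the RNA modification m6A.

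The samples were lysates of Drosophila melanogaster pupal heads, many heads pooled for each genotype, and each lysate was sampled as input before the rest was shared between beads with a pair of monoclonal antibodies to endogenous Fmr1 and beads with mouse IgG. Mutants came from the stock CG6422 with the genotype Ythdf#0/#0, and controls were w1118, called wild type below. Mutant heads gave 4 Fmr1, 4 IgG and 4 input libraries (replicates 1, 2, 3 and 7), and wild type heads gave 5 of each (replicates 1, 2, 3, 5 and 7). Neither the age of the pupae nor their sex was given, and no group received a treatment. The tissue label reads whole brain while the protocol names heads. Markers of neurons, glia, photoreceptors, muscle and fat body were all above 0 in the data.

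Reads assigned to genes numbered 10726339 to 54195136 in mutant and 14843961 to 29699547 in wild type Fmr1 libraries. IgG libraries were much smaller, with 274951 to 3052311 reads in mutants and 196933 to 5879253 in wild type. Inputs held 9207492 to 15459370 reads in mutants and 5623123 to 13240187 in wild type. Ythdf itself, the mutated gene, averaged 33.2 ± 3.26 CPM (reads of a gene scaled to a common library total) in mutant inputs (SD, n = 4) and 61.8 ± 5.18 CPM in wild type inputs (SD, n = 5), without overlap. All levels below are CPM scaled by TMM, a normalization to a trimmed mean of all genes. A difference is a log2 fold change ± SE from edgeR's quasi-likelihood test over 27 libraries, and it passed when the Benjamini-Hochberg adjusted p over all 11469 genes was under 0.05. In bulk RNA of this kind, fewer cells of a type and less RNA per cell cannot be told apart.

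Per kilobase of exon, Thor and S6k were the most abundant of these mRNAs in heads and raptor was the least. In mutant inputs Thor averaged 82.9 ± 59.9 CPM per kb, S6k 35.7 ± 3.77, Rheb 27.8 ± 4.61 and Akt 16.6 ± 1.16 (SD, n = 4). The same 4 mRNAs averaged 44.1 ± 11.9, 39.9 ± 3.66, 27.5 ± 1.85 and 17.6 ± 2.23 CPM per kb in wild type inputs (SD, n = 5). In mutant inputs every Thor library, at 51.1 to 173 CPM per kb, was above every S6k library, at 30.6 to 39.3. The highest Thor value there was that of replicate 7. Thor at 27.8 to 53.5 and S6k at 34.9 to 44.9 CPM per kb overlapped in wild type inputs. Next came gig, Tsc1 and rictor at 9.50 ± 0.55, 8.89 ± 0.38 and 8.63 ± 0.49 CPM per kb in mutant inputs, and at 9.15 ± 0.28, 9.11 ± 0.57 and 9.47 ± 0.70 CPM per kb in wild type inputs. Levels per length of gig and Tsc1 overlapped in each genotype, so the mRNAs of the paired TSC subunits stood at about equal levels in total RNA. Tor at 6.60 ± 0.60 and raptor at 5.16 ± 0.60 CPM per kb were lowest in mutant inputs, as they were in wild type inputs at 6.14 ± 0.44 and 5.00 ± 0.24. Part of the raptor gene is shared with a neighbour: 23.5% of its exon bases overlap Mipp2 on the same strand, and the counting of shared reads is not stated, so its level is less certain than the others.

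**Figure D1:**
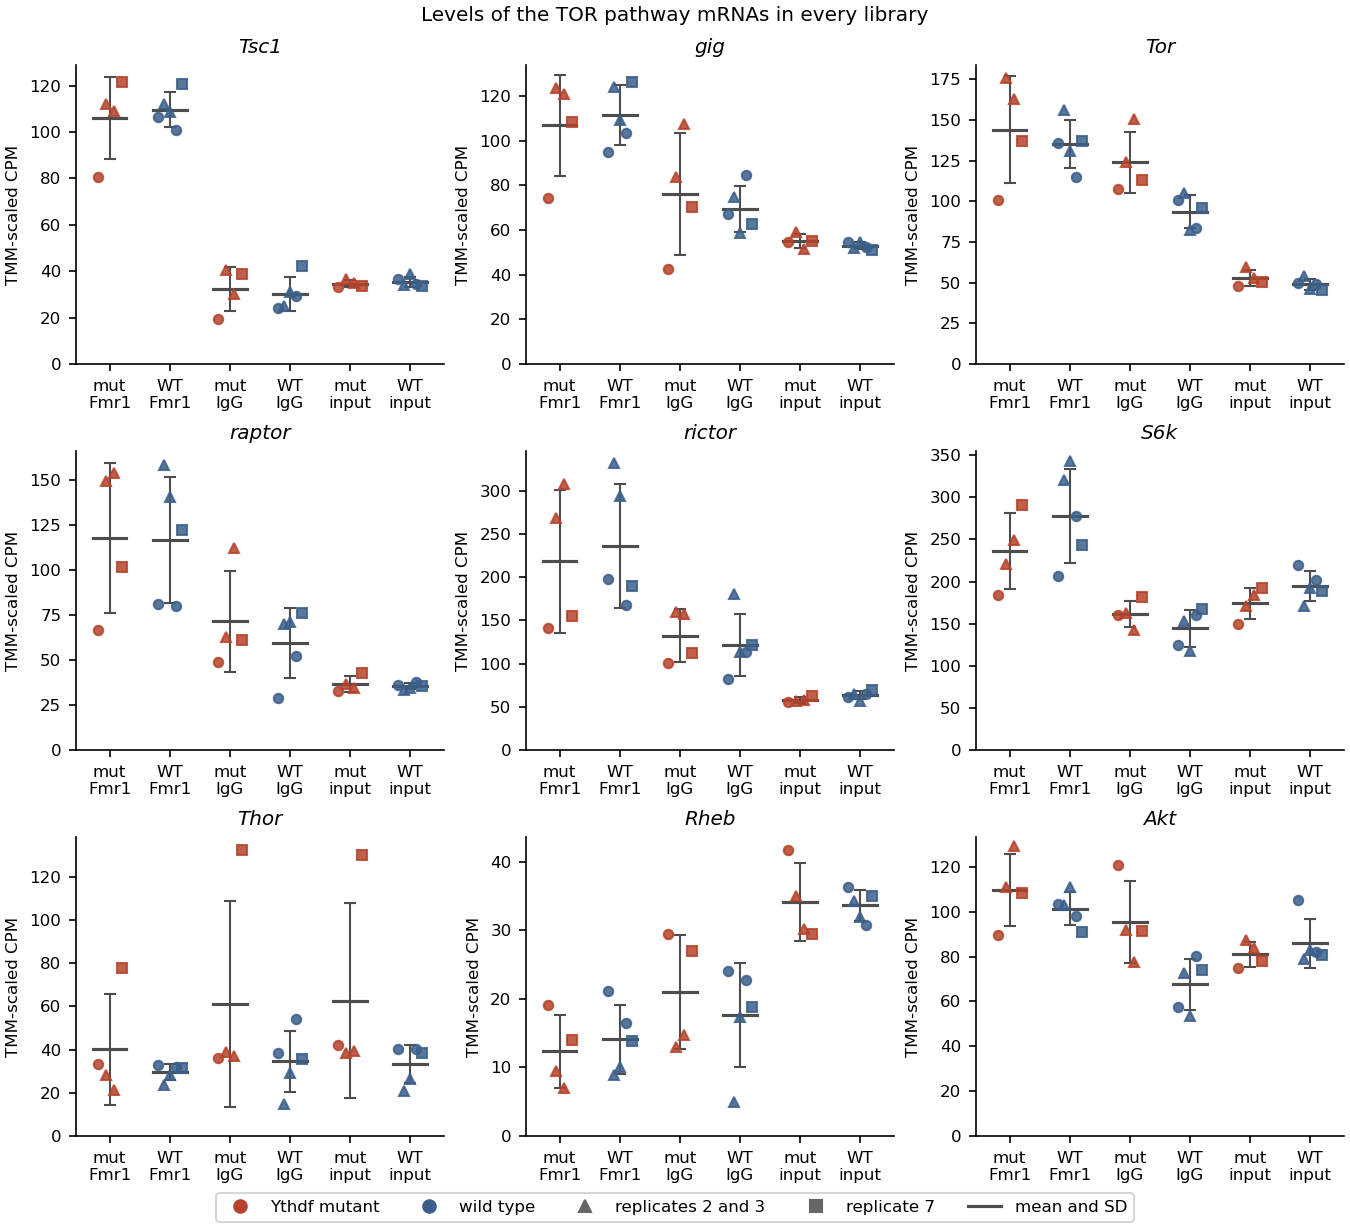
Each panel shows the level of an mRNA in TMM-scaled CPM (vertical axis, from 0) in the 27 libraries, by antibody and genotype; bars are the group mean and SD. Tsc1 lies between 80.8 and 122 CPM in the Fmr1 libraries and never above 42.4 CPM in IgG or input, while Rheb is highest in the inputs and Thor is far up in the mutant libraries of replicate 7.

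Tsc1 mRNA was about 3 times as abundant in the Fmr1 pull-downs as in either IgG or input, in each genotype. Mutant Fmr1 libraries held 80.8, 112, 109 and 122 CPM of Tsc1, against 19.6, 40.3, 30.2 and 38.9 CPM in mutant IgG libraries (replicates 1, 2, 3 and 7) and 33.4, 36.6, 35.1 and 33.5 CPM in mutant inputs. The wild type Fmr1 libraries held 106, 112, 109, 101 and 121 CPM, against 24.0, 25.01, 30.9, 29.3 and 42.4 CPM in wild type IgG libraries (replicates 1, 2, 3, 5 and 7) and 36.5, 33.9, 38.9, 34.7 and 33.5 CPM in wild type inputs. Every Fmr1 library was above every IgG and input library, and IgG overlapped input. The fitted log2 fold change of Fmr1 over IgG was 1.65 ± 0.18 in mutants, at rank 116 of all genes, and 1.75 ± 0.16 in wild type, at rank 52. Fmr1 over IgG, taken between libraries of the same number, ranged from 2.78 to 4.13 in mutants and from 2.84 to 4.48 in wild type. Over input the log2 fold change was 1.61 ± 0.16 in mutants and 1.63 ± 0.14 in wild type. IgG over input was -0.03 ± 0.18 in mutants and -0.12 ± 0.16 in wild type on the same scale. The smallest IgG libraries had 6 reads of Tsc1 in mutants and 5 in wild type, so single IgG values are coarse. With the difference between the genotypes at -0.10 ± 0.24 over IgG (approximate 95% interval -0.57 to 0.36) and at -0.01 ± 0.21 over input (-0.43 to 0.40), the Tsc1 values in the genotypes lay well within their errors.

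The partner subunit did not follow Tsc1 in size, though Tsc1 was chosen for its level above IgG and gig was not. In mutant Fmr1 libraries gig stood at 74.4, 124, 121 and 108 CPM, against 42.4, 83.9, 108 and 70.4 CPM in mutant IgG libraries and 54.6, 59.2, 51.4 and 54.9 CPM in mutant inputs. In wild type Fmr1 libraries it stood at 95.1, 124, 109, 104 and 126 CPM, against 67.2, 75.0, 58.6, 84.5 and 62.7 CPM in IgG and 54.9, 51.8, 54.5, 52.6 and 51.2 CPM in input. The Fmr1 and IgG libraries overlapped in mutants and did not in wild type, and Fmr1 was above input throughout. Fmr1 over IgG was 0.44 ± 0.19 in mutants (log2), where it did not pass (edgeR adjusted p = 0.0933), and 0.69 ± 0.17 in wild type (adjusted p = 0.00245). Without mutant IgG replicate 3 the mutant value was 0.67 and passed (edgeR adjusted p = 0.0169). Over input gig was higher by 0.96 ± 0.18 in mutants and 1.07 ± 0.16 in wild type (edgeR adjusted p = 8.69e-05 and 3.73e-06).

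Set per kilobase of exon, Tsc1 over gig changed with the antibody. The ratio was 1.49 ± 0.17 in mutant and 1.47 ± 0.12 in wild type Fmr1 libraries, 0.66 ± 0.17 in mutant and 0.67 ± 0.22 in wild type IgG libraries, and 0.94 ± 0.05 in mutant and 1.00 ± 0.04 in wild type inputs (SD, n = 4 in mutants and 5 in wild type). Its lowest Fmr1 value was 1.34 and its highest value in IgG or input was 1.06. Since Tsc1 was picked for its pull-down values, this ratio carries no test.

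**Figure D2:**
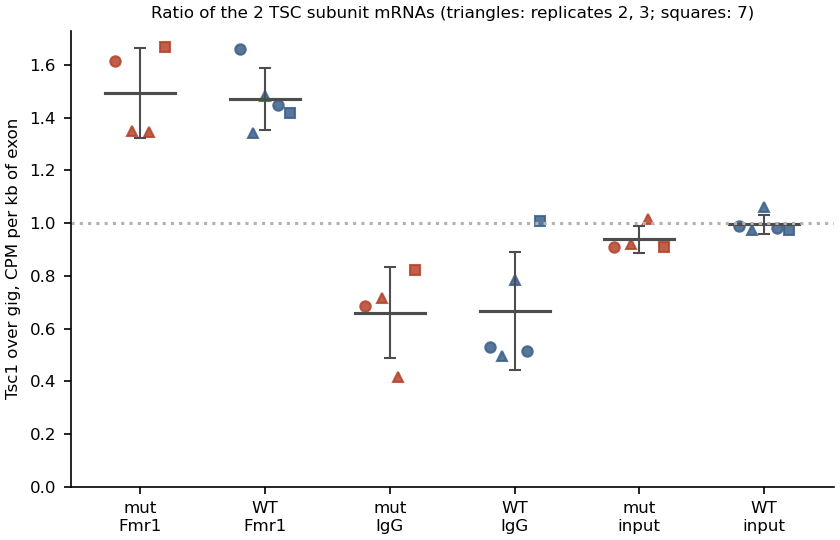
The level of Tsc1 over that of gig, each in CPM per kilobase of exon (vertical axis, from 0), in every library by antibody and genotype; bars are the mean and SD and the dotted line is a ratio of 1. All 9 Fmr1 libraries lie at 1.34 or above, and the inputs lie between 0.91 and 1.06.

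Of the 8 members that could be tested over IgG, rictor and S6k, 2 in all, were higher in mutant Fmr1 libraries, where 10.8% of all genes passed as higher. In wild type 6 of the 8 were higher, where 16.4% of all genes were: gig, Tor, raptor, rictor, S6k and Akt. None passed as lower in either genotype, where 9.61% of all genes did in mutants and 17.0% in wild type. The median log2 fold change of the 8 was 0.34 in mutants and 0.63 in wild type, beside -0.00079 and -0.02 over all genes. Same-numbered libraries of mutant Fmr1 and IgG deviated together, and with the replicate number as a block 5 members passed in mutants, 3 higher and 2 lower, where 12.4% of all genes were higher and 11.4% lower. Of these, raptor was higher at 0.70 (edgeR adjusted p = 0.0255), and Rheb at -0.85 and Thor at -0.58 were lower (edgeR adjusted p = 0.0202 and 0.0187), beside rictor and S6k.

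The mutant calls over IgG were fragile. Under the size factors of DESeq2's method (RLE) in edgeR none of the 8 passed in mutants, where 5.67% of all genes were higher and 11.7% lower. RLE left 4 of 8 in wild type, all higher, where 8.56% of all genes were. It also moved the median log2 fold change of all genes over IgG by -0.15 in mutants and by -0.22 in wild type, and in wild type IgG over input by 0.13, so values under it stand against another midpoint. Under RLE rictor was at 0.54 in mutants (edgeR adjusted p = 0.118) and 0.72 in wild type (adjusted p = 0.0111). Leaving out 1 of the 27 libraries at a time, rictor passed in mutants in 16 fits, at 0.51 to 0.86, and S6k in 21 fits, at 0.45 to 0.58; the lowest rictor values came without mutant Fmr1 replicate 2 or 3, and the lowest S6k value without mutant Fmr1 replicate 7. All 6 wild type calls passed in each of the 27 fits. Without replicates 2 and 3, 0 of 8 passed in mutants and 1 of 8 in wild type, which was rictor at 0.65 (edgeR adjusted p = 0.0257). Calls over all genes were fewer in that fit too, with 0.396% higher and 2.45% lower in mutants and 4.72% higher and 13.3% lower in wild type.

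Among the Tor complex genes, rictor had the highest Fmr1 levels per kilobase of exon, at 32.4 ± 12.3 CPM per kb in mutants and 35.1 ± 10.7 in wild type (SD, n = 4 and 5), against 16.4 to 18.0 for the group means of Tor and raptor. Rictor, the subunit that defines the complex acting on Akt, reached 141, 269, 308 and 156 CPM in mutant Fmr1 libraries, against 101, 159.7, 157 and 112 CPM in IgG and 55.6, 56.4, 57.7 and 63.0 CPM in input. Wild type Fmr1 libraries had 198, 332, 294, 168 and 189.8 CPM, against 81.7, 180.1, 113, 114 and 121 CPM in IgG and 61.4, 65.2, 57.3, 65.3 and 69.8 CPM in input. Replicates 2 and 3 were the highest in the Fmr1 libraries of both genotypes, while the inputs of the same numbers were not set apart. Fmr1 over IgG was 0.71 ± 0.24 in mutants and 0.94 ± 0.22 in wild type (edgeR adjusted p = 0.0367 and 0.00143). Fmr1 over input was 1.91 ± 0.24 and 1.89 ± 0.21, at ranks 48 and 74 of all genes (edgeR adjusted p = 6.29e-07 and 8.35e-08).

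Raptor, the subunit of the complex that acts on S6k and Thor, ranged from 66.6 to 154 CPM in mutant Fmr1 libraries, from 48.9 to 112 CPM in IgG and from 32.8 to 42.6 CPM in input. Its wild type ranges were 80.1 to 158 CPM in Fmr1, 28.8 to 76.1 CPM in IgG and 33.5 to 37.8 CPM in input. Here too replicates 2 and 3 held the top Fmr1 values of each genotype. Over IgG raptor was at 0.68 ± 0.27 in mutants (edgeR adjusted p = 0.069) and was higher by 0.88 ± 0.24 in wild type (adjusted p = 0.00573). Without mutant IgG replicate 3 the mutant value was 1.01 (edgeR adjusted p = 0.013). Over input it was higher by 1.69 ± 0.26 in mutants and 1.71 ± 0.23 in wild type (edgeR adjusted p = 8.43e-06 and 9.73e-07). Tor, the kinase of both complexes, ranged from 101 to 175 CPM in mutant Fmr1 libraries and from 108 to 150.3 CPM in mutant IgG libraries, so these overlapped. The wild type groups did not overlap, with 114.7 to 156 CPM in Fmr1 and 82.5 to 105 CPM in IgG. Inputs held 48.3 to 59.3 CPM in mutants and 45.7 to 54.3 CPM in wild type, below every pull-down. Tor over IgG was accordingly 0.21 ± 0.16 in mutants (edgeR adjusted p = 0.382) and 0.55 ± 0.14 in wild type (adjusted p = 0.00445), and over input it was 1.45 ± 0.15 and 1.46 ± 0.14 (adjusted p = 6.86e-08 and 6.30e-09).

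The mRNAs of the Tor complexes also stood above input without the Fmr1 antibody. Tor, raptor and rictor were higher in IgG than in input by 1.24 ± 0.16, 1.00 ± 0.27 and 1.20 ± 0.24 in mutants (edgeR adjusted p = 1.30e-05, 0.0151 and 0.00211). In wild type the same 3 were higher by 0.91 ± 0.15, 0.83 ± 0.24 and 0.95 ± 0.22 (edgeR adjusted p = 4.58e-05, 0.0112 and 0.00189). In the fit reported they were the only members of the 8 that passed as higher in IgG over input. Of all genes, 5.46% did in mutants and 14.7% in wild type. This comparison was added after the values were seen. Under RLE gig passed as higher too, at 0.59 in mutants and 0.50 in wild type (edgeR adjusted p = 0.0339 and 0.0224). There 6.99% and 18.9% of all genes were higher. With 1 library left out, gig passed in 5 of the 27 fits in each genotype. Without replicates 2 and 3, Tor alone passed in mutants, where 0.299% of all genes were higher. Raptor did not pass without mutant IgG replicate 3 (0.68) in mutants or without wild type IgG replicate 7 (0.73) in wild type. None of the members passed as lower in mutants, where 5.77% of all genes did, whereas S6k at -0.42 ± 0.15 and Rheb at -0.91 ± 0.29 were lower in wild type IgG than in input (edgeR adjusted p = 0.0405 and 0.0204), where 14.6% of all genes were. Rheb missed the threshold without wild type IgG replicate 7, at -0.93 (adjusted p = 0.0591). The wild type S6k call was lost in 17 of the 27 fits that each left out 1 library. Under RLE neither S6k nor Rheb passed in wild type (edgeR adjusted p = 0.14 and 0.0509), where 10.3% of all genes were lower.

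**Figure D3:**
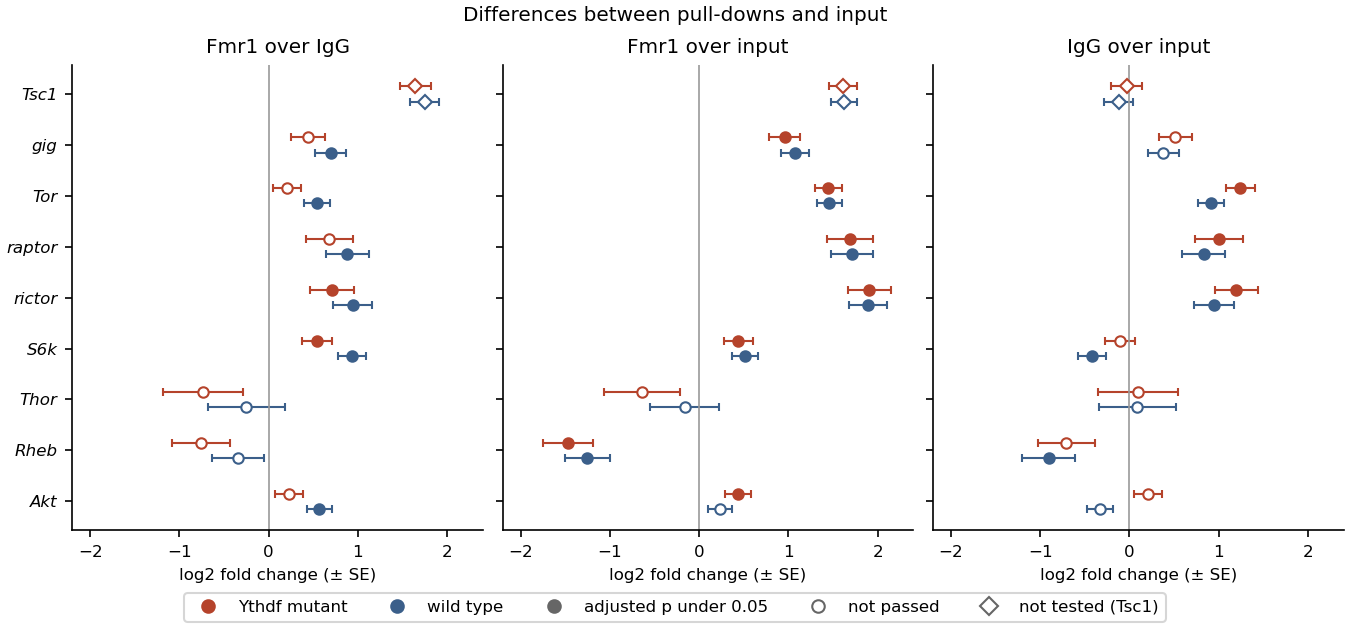
Log2 fold changes ± SE (horizontal axis) of the members for Fmr1 over IgG, Fmr1 over input and IgG over input, mutants above wild type in each row; filled circles passed at an adjusted p under 0.05, open circles did not and Tsc1 (diamonds) was not tested. Tor, raptor and rictor lie right of 0 in all 3 panels, and Tsc1 lies between 1.61 and 1.75 over IgG and input and near 0 in IgG over input.

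S6k, the kinase that phosphorylates ribosomal protein S6, was higher in Fmr1 libraries than in IgG and, by a smaller log2 difference, than in input. In mutant Fmr1 libraries it stood at 183, 221, 249 and 291 CPM, against 159.9, 163, 143 and 181 CPM in IgG and 149.7, 171, 184 and 192 CPM in input. In wild type Fmr1 libraries it stood at 206, 321, 343, 277 and 244 CPM, against 125, 153, 117, 160.4 and 168 CPM in IgG and 219, 171, 193, 202 and 189 CPM in input. No Fmr1 library fell within the IgG range in either genotype, whereas Fmr1 and input overlapped in each. Over IgG S6k was higher by 0.54 ± 0.17 in mutants and 0.93 ± 0.15 in wild type (edgeR adjusted p = 0.0232 and 3.79e-05). Over input it was higher by 0.44 ± 0.16 and 0.51 ± 0.15 (edgeR adjusted p = 0.0298 and 0.00492), and neither call held without replicates 2 and 3. The mutant call over input was also lost in 5 of the 27 fits without 1 library, at 0.34 to 0.42.

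Akt, the insulin-responsive kinase upstream of the TSC complex, showed small differences. It ranged from 89.8 to 129.5 CPM in mutant Fmr1 libraries, from 77.5 to 121 CPM in IgG and from 74.8 to 87.4 CPM in input. Wild type ranges were 90.9 to 111 CPM in Fmr1, 53.5 to 80.2 CPM in IgG and 78.9 to 105 CPM in input. Over IgG it was at 0.23 ± 0.16 in mutants (edgeR adjusted p = 0.318) and passed in wild type at 0.57 ± 0.14 (adjusted p = 0.00292). Over input it passed in mutants at 0.44 ± 0.15 (edgeR adjusted p = 0.0165), against 0.24 ± 0.13 in wild type (adjusted p = 0.14). The mutant call was lost without mutant input replicate 3 or mutant Fmr1 replicate 2 or 3, at 0.36 to 0.39, and the wild type value passed without wild type input replicate 1, at 0.35.

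Rheb, the GTPase that the TSC complex restrains, was depleted from the Fmr1 pull-downs relative to input. Its mutant Fmr1 libraries held 19.1, 9.47, 6.93 and 13.9 CPM, against 29.4, 12.9, 14.7 and 26.9 CPM in IgG and 41.7, 34.9, 30.2 and 29.5 CPM in input. The wild type Fmr1 libraries held 21.2, 8.88, 10.0, 16.5 and 13.9 CPM, against 24.0, 5.00, 17.4, 22.8 and 18.8 CPM in IgG and 36.4, 34.3, 31.9, 30.8 and 34.9 CPM in input. Inputs lay above all Fmr1 libraries, and replicates 2 and 3 were the lowest of each pull-down group. Rheb fell to a log2 fold change of -1.47 ± 0.28 over input in mutants and -1.25 ± 0.25 in wild type (edgeR adjusted p = 1.22e-04 and 1.49e-04). Over IgG it did not pass, at -0.76 ± 0.32 in mutants and -0.35 ± 0.29 in wild type (edgeR adjusted p = 0.0973 and 0.399). The mutant value passed with the replicate number as a block, as given above. Without mutant Fmr1 replicate 1 the mutant value was -1.13 and passed (adjusted p = 0.0144). The lowest IgG library of wild type had 2 reads of Rheb.

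Over input, 6 of the 8 members tested were higher in mutant Fmr1 libraries and 1 was lower, beside 21.7% and 24.8% of all genes. In wild type 5 were higher and 1 was lower, beside 23.2% and 25.6% of all genes. Their median was 0.70 in mutants and 0.79 in wild type (log2), beside -0.10 and -0.03 over all genes. Without replicates 2 and 3, Tor, raptor and rictor were still higher and Rheb still lower in mutants, while gig, S6k and Akt did not pass there. Calls over all genes were fewer in mutants in that fit too, with 5.48% higher and 13.4% lower.

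In Fmr1 over IgG and over input, the sign of the members' values went with the length of their mRNAs. The 2 short members, Thor with 755 bases of exon and Rheb with 1225, had log2 fold changes below 0 in both comparisons, and the 7 others, with 3896 bases (Tsc1) to 7987 bases (Tor), had values above 0. Across all tested genes, the median of Fmr1 over input was -0.99 in mutants and -0.86 in wild type for the 4148 genes under 1.5 kb, and 0.67 and 0.63 for the 2632 genes over 3.5 kb. For IgG over input the medians were -0.44 and -0.37 for the short genes and 0.25 and 0.27 for the long ones. The members did not divide this way there: Thor, the shortest, was at 0.10 in mutants and 0.09 in wild type, while S6k at -0.11 and -0.42, Tsc1 at -0.03 and -0.12 and, in wild type, Akt at -0.33 were below 0. For Fmr1 over IgG they were -0.56 and -0.65, and 0.38 and 0.36. Against the long genes, Tor, raptor, rictor and Tsc1 were past the 90th percentile in Fmr1 over input in each genotype, at 1.29 in mutants and 1.27 in wild type. Akt and S6k were below the median of the long genes over input. The 90th percentile over IgG was 0.87 in mutants, above every tested member, and Tor and Akt were below the median there. In wild type it was 0.88, and of the tested members rictor (0.94) and S6k (0.93) were past it. For IgG over input, Tor, raptor and rictor were past the 90th percentile of 0.91 in mutants. They were below that of 1.00 in wild type. Over IgG, Tsc1 was exceeded by 0.342% of the long genes in mutants and 0.228% in wild type, as a description of how it was chosen. The part of length in these differences was not tested.

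**Figure D4:**
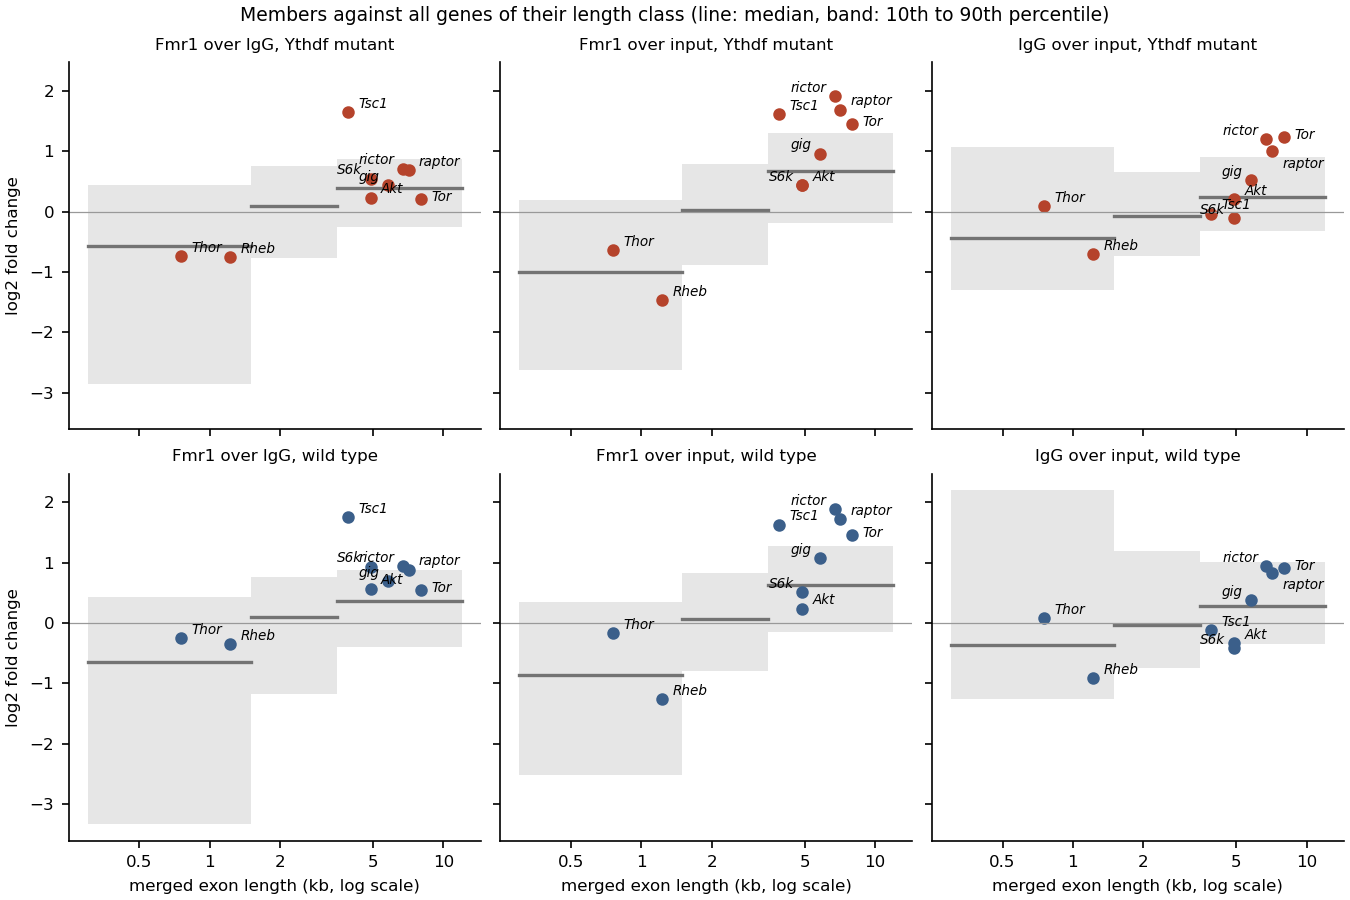
Log2 fold change of each member (vertical axis) by its merged exon length in kb (horizontal axis, log scale) for 3 comparisons in mutants (top) and wild type (bottom); grey lines are the median of all genes in 3 length classes and bands their 10th to 90th percentile. Thor and Rheb sit in the short class, where the medians over input are -0.99 and -0.86, and rictor, raptor, Tor and Tsc1 lie above the band of the long class in Fmr1 over input.

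The members also differed in how they moved between replicates. In the Fmr1 libraries, rictor was at 269 to 308 CPM in mutant replicates 2 and 3, against 141 to 156 CPM in replicates 1 and 7, and at 294 to 332 CPM in the wild type replicates of these numbers, against 168 to 198 CPM in the other replicates. Raptor was likewise higher in replicates 2 and 3 of both genotypes, and Rheb and Thor were lower. For gig, Tor and Akt these replicates were higher in mutants and overlapped the others in wild type, and for S6k they were higher in wild type and overlapped in mutants. Tsc1, which was chosen for steady pull-down values, overlapped in both. The labels give no date or run for these numbers.

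Marker levels shifted between the pull-downs as well. Fat body markers, 4 of 4 above 0, summed to 52.4 to 310 CPM in mutant Fmr1 libraries, 874 to 6058 CPM in IgG and 156 to 204 CPM in input, and to 27.9 to 211, 807 to 2272 and 53.3 to 112 CPM in wild type. Muscle markers, also 4 of 4, summed to 24574 to 54095 CPM, 14935 to 38283 CPM and 10075 to 16418 CPM in the mutant libraries in that order of antibodies, and to 29001 to 60573, 15485 to 46710 and 14690 to 19975 CPM in wild type. Neuron markers, 6 of 6, summed to 6330 to 10323 CPM in mutant Fmr1 libraries, 4891 to 7644 CPM in IgG and 3441 to 4525 CPM in input, and to 8562 to 12648, 4890 to 7373 and 4782 to 6981 CPM in wild type. Glia markers, 4 of 4, summed to 1189 to 1531, 1160 to 1544 and 1624 to 1826 CPM in mutants and to 1225 to 2329, 745 to 2032 and 1778 to 2426 CPM in wild type, and photoreceptor markers, 4 of 4, to 9631 to 14546, 7218 to 8605 and 8338 to 9311 CPM and to 9562 to 17111, 4848 to 10089 and 9500 to 11978 CPM. The least abundant marker of a list did not always follow its sum. Act88F, a muscle marker, averaged 102 CPM in wild type Fmr1 libraries and 154 CPM in input, and 251 and 245 CPM in mutants. Repo, of the glia list, averaged 63.9 and 40.4 CPM in mutants and 73.7 and 44.6 CPM in wild type, in that order. Arr2, of the photoreceptor list, averaged 1207 and 1457 CPM in mutants and 1249 and 1505 CPM in wild type. The neuron marker elav averaged 163 and 150 CPM in mutants and 190 and 198 CPM in wild type. The part of the markers in the members' differences was not tested.

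No member passed between the genotypes in the fit of all 27 libraries. In inputs 0 of the 9 members passed between mutants and wild type by edgeR's quasi-likelihood test, while 5.68% of all genes did. Thor alone had an unadjusted p under 0.05, as did 18.9% of all genes. DESeq2 and voom called 0 of 9 as well. With replicates 2 and 3 alone Thor passed, higher in mutant inputs by 0.70 (edgeR adjusted p = 0.0186). Tsc1, whose input values played no role in its choice, differed by -0.03 ± 0.15 (log2, approximate 95% interval -0.33 to 0.26, edgeR adjusted p = 0.937). The intervals of gig (-0.28 to 0.38), Tor (-0.18 to 0.39), S6k (-0.47 to 0.15) and Akt (-0.36 to 0.19) were of similar width. Those of raptor (-0.43 to 0.52), rictor (-0.57 to 0.30) and Rheb (-0.49 to 0.53) were wider. The interval of Thor, 0.12 to 1.70, was the widest and the only one of the 9 that did not hold 0.

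The IgG libraries of mutants and wild type gave 0 of 8 calls, with 4.27% of all genes called. An unadjusted p under 0.05 was reached by 2 of the 8 members, beside 19.5% of all genes. The 2 members were Tor at 0.43 ± 0.16 and Akt at 0.45 ± 0.16, both higher in mutants. DESeq2 and voom called 0 of 8 as well, and so did the fit with the replicate number as a block.

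The difference between the genotypes in Fmr1 over IgG was not called for any of the 8 members (edgeR's quasi-likelihood test, 0% of all genes called). An unadjusted p under 0.05 was reached by 0 members and by 4.39% of all genes. DESeq2 and voom called 0 of 8 as well. All 9 log2 values were below 0, Tsc1 included. Those of Tor, at -0.34 ± 0.21, S6k, at -0.39 ± 0.23, and Akt, at -0.34 ± 0.21, had the smallest unadjusted p. Their approximate 95% intervals were -0.76 to 0.08, -0.84 to 0.06 and -0.75 to 0.08. So the lower number of members called over IgG in mutants is not shown to be a difference between the genotypes. The 9 values share the same IgG libraries. Over input the difference was called for 0 of 8, with 0.00872% of all genes called and 0 calls of members by DESeq2 or voom. There 0 members and 1.72% of all genes had an unadjusted p under 0.05. The differences over input ranged from -0.48 ± 0.57 for Thor to 0.20 ± 0.20 for Akt.

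Thor, which binds eIF4E and blocks cap-dependent translation until Tor phosphorylates it, stood far higher in 1 mutant replicate than in the others. In mutant Fmr1 libraries it stood at 33.1, 28.1, 21.3 and 77.7 CPM, against 35.9, 38.7, 37.2 and 132 CPM in IgG and 42.1, 38.6, 39.2 and 130.3 CPM in input. In wild type Fmr1 libraries it stood at 32.9, 23.5, 28.03, 32.1 and 31.6 CPM, against 38.4, 15.01, 29.0, 54.2 and 35.8 CPM in IgG and 40.3, 21.0, 26.5, 40.4 and 38.2 CPM in input. All 3 mutant libraries of replicate 7 were above every other library of their kind. Between mutant and wild type inputs Thor differed by 0.91 ± 0.40 (log2, edgeR adjusted p = 0.213), and by 0.20 without the mutant input of replicate 7. Taken within a replicate number the mutant Fmr1 level was 0.54 to 0.79 of the input level, below 1 in 4 of 4, and 0.57 to 0.92 of the IgG level. In wild type these ratios were 0.79 to 1.12 and 0.59 to 1.57. The fit without pairing gave -0.64 ± 0.43 over input in mutants (edgeR adjusted p = 0.229), and without mutant Fmr1 replicate 7 it gave -1.17 (adjusted p = 0.0292). With the replicate number as a block it was -0.60 ± 0.15 (edgeR adjusted p = 0.00196), same-numbered mutant Fmr1 and input libraries having deviated together. In wild type Thor over input was -0.16 ± 0.38 (edgeR adjusted p = 0.758), and -0.12 with the block (adjusted p = 0.47).

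The genes most like Tsc1 across the 27 libraries, by Pearson's r of log2 CPM over 6464 genes with a mean of at least 10 CPM, were Usp1 (r = 0.96), grau (0.94), CG3257 (0.94), Tao (0.94) and Sf3b2 (0.94). Usp1 stood at 168 to 255 CPM in mutant and 188 to 218 CPM in wild type Fmr1 libraries, at 75.8 to 88.1 and 65.7 to 103 CPM in IgG, and at 87.2 to 93.4 and 85.1 to 97.9 CPM in input. Of the members, S6k (0.82) and gig (0.80) were the most like Tsc1, raptor, rictor, Akt and Tor followed at 0.75, 0.71, 0.60 and 0.59, and Thor and Rheb were at -0.15 and -0.51. The 27 libraries differ in antibody and depth, which all of these correlations share.

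Other genes of the pathway were read from 5 lists with 76 names, of which 72 matched the annotation and 71 had enough reads. Over IgG, 14 were higher and 4 lower in mutant Fmr1 libraries, and 20 were higher and 5 lower in wild type (edgeR's quasi-likelihood test). Those higher were 19.7% of the 71 in mutants and 28.2% in wild type, beside 10.8% and 16.4% of all genes, and those lower were 5.63% and 7.04%, beside 9.61% and 17.0%. Their median was 0.08 in mutants and 0.12 in wild type (log2), beside -0.00079 and -0.02 over all genes. These counts were not steady: without replicates 2 and 3 they were 0 higher and 1 lower in mutants and 6 higher and 3 lower in wild type, and under RLE 6 higher and 5 lower in mutants and 13 higher and 9 lower in wild type. The shares of all genes in these fits are those given above beside the members, and under RLE 22.3% were lower in wild type. The genes named below were chosen by a rule, the 3 with the smallest p among those called in each list and comparison.

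The energy sensors were the list with the highest median, at 0.57 in mutants and 0.49 in wild type over IgG. Of 5 tested, 4 were higher in mutants, where 10.8% of all genes were, and 3 in wild type, where 16.4% were. None was lower. AMPKalpha, the catalytic subunit of the AMP-activated kinase, averaged 187 ± 36.9 CPM in mutant Fmr1 libraries, against 96.9 CPM in IgG, and 171 ± 36.6 CPM in wild type Fmr1 libraries, against 94.5 CPM in IgG. It was higher by 0.91 ± 0.20 in mutants and 0.89 ± 0.19 in wild type (edgeR adjusted p = 0.00214 and 5.12e-04). Mo25, a scaffold of the upstream kinase Lkb1, was higher by 0.57 ± 0.17 and 0.72 ± 0.16 over IgG (edgeR adjusted p = 0.0175 and 9.56e-04), and Lkb1 was higher by 0.69 ± 0.21 in mutants. Mo25 was lower in IgG than in input, at -0.79 ± 0.17 in mutants and -1.25 ± 0.16 in wild type. In wild type it was also lower in Fmr1 than in input, at -0.53 ± 0.14 (edgeR adjusted p = 0.00235), without overlap.

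Among 20 targets and effectors of Tor, 5 were higher and 1 lower over IgG in mutants, and 8 were higher and 3 lower in wild type, against the same shares of all genes (10.8% and 9.61% in mutants, 16.4% and 17.0% in wild type). Lk6, the kinase that phosphorylates eIF4E, averaged 2071 ± 391 CPM in mutant Fmr1 libraries, against 1013 CPM in IgG, and 1636 ± 169 CPM in wild type Fmr1 libraries, against 683 CPM in IgG. Its log2 fold change was 1.03 ± 0.19 in mutants and 1.27 ± 0.17 in wild type (edgeR adjusted p = 3.32e-04 and 3.03e-06). The autophagy genes Atg1 and Atg17, partners in the kinase complex that Tor inhibits, were higher by 0.65 ± 0.16 and 0.72 ± 0.18 in mutants and by 0.66 ± 0.14 and 0.69 ± 0.16 in wild type. Over input 6 of the 20 were higher and 8 lower in mutants, where 21.7% and 24.8% of all genes were, and 7 were higher and 9 lower in wild type, where 23.2% and 25.6% were. Atg17 was higher over input in mutants, at 0.98 ± 0.17 (edgeR adjusted p = 4.91e-05), and Lpin, a phosphatidate phosphatase, was higher in wild type, at 0.98 ± 0.15 (adjusted p = 6.38e-06). Tif-IA, a factor for ribosomal RNA transcription, was lower, at -1.10 ± 0.18 in mutants and -1.20 ± 0.16 in wild type, while Atg13 at -1.45 ± 0.23 was lower in mutants and RpS6, the ribosomal substrate of S6k, at -1.42 ± 0.21 in wild type.

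Of 10 TSC and TORC regulators tested, scyl was the 1 that passed over IgG, higher by 0.98 ± 0.22 in mutants and 1.12 ± 0.20 in wild type (edgeR adjusted p = 0.00212 and 7.48e-05), a share of the list no higher than that of all genes. Scyl and chrb are the fly REDD proteins, which act on Tor through the TSC complex. In IgG over input scyl was lower, at -0.93 ± 0.20 in wild type. The small GTPase Arf1 was lower in Fmr1 than in input, at -1.14 ± 0.26 in mutants and -1.35 ± 0.24 in wild type, and Lst8, a shared subunit of the Tor complexes, was lower, at -0.79 ± 0.22 in mutants (edgeR adjusted p = 0.00481), unlike Tor, raptor and rictor. Over input 1 of the 10 was higher and 3 were lower in mutants, where 21.7% and 24.8% of all genes were. In wild type 1 was higher and 4 were lower, where 23.2% and 25.6% of all genes were. The gene that was higher was Tti1, at 0.72 ± 0.21 in mutants and 0.69 ± 0.19 in wild type.

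Amino acid sensing genes were near the genome as a whole over IgG, with a median of -0.11 in mutants and 0.05 in wild type, and 1 of 19 higher and 1 lower in mutants, 2 higher and 1 lower in wild type, against 10.8%, 9.61%, 16.4% and 17.0% of all genes. Wdr59, of the GATOR2 complex, was higher by 1.01 ± 0.23 in mutants and 0.64 ± 0.20 in wild type. Iml1, of the GATOR1 complex, was higher over input in Fmr1 (1.09 ± 0.19 in mutants, 1.17 ± 0.17 in wild type) and nearly as much in IgG (1.00 ± 0.21 and 1.10 ± 0.18). In the insulin branch, with 3 of 17 higher and 2 lower in mutants and 6 higher and 1 lower in wild type, beside the same shares of all genes, the phosphatidylinositol kinase adaptor Pi3K21B was higher over IgG by 0.60 ± 0.19 in mutants and 1.07 ± 0.18 in wild type (edgeR adjusted p = 0.0282 and 3.52e-05). The insulin-like peptide Ilp2 averaged 2.38 ± 0.23 CPM in mutant Fmr1 libraries, against 5.48 ± 2.55 CPM in IgG (SD, n = 4). It was lower over IgG, at -1.44 ± 0.37 (edgeR adjusted p = 0.0072). The mutant IgG libraries held as few as 274951 reads, so a level this low rests on few reads there.

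Between the genotypes, 0 of the 71 genes passed in inputs, in IgG libraries or in the difference of Fmr1 over IgG or over input (edgeR's quasi-likelihood test), where 5.68%, 4.27%, 0% and 0.00872% of all genes did. An unadjusted p under 0.05 was reached by 10 of the 71 in inputs and by 7 in IgG libraries, fewer in proportion than the 18.9% and 19.5% of all genes. In either difference it was reached by 0 of the 71, beside 4.39% and 1.72% of all genes. DESeq2 called 2 in inputs and 2 in IgG, where 8.16% and 6.02% of all genes were called. Voom called 1 in each, where 8.14% and 2.39% of all genes were called. Both methods called 0 of the 71 in the differences. With only the input libraries in the fit, 3 of the 71 were higher and 6 lower in mutants, where 10.6% and 11.1% of all genes were. With the replicate number as a block, which the IgG libraries of the genotypes shared, 1 was higher in mutant IgG, where 3.30% of all genes were.

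**Figure D5:**
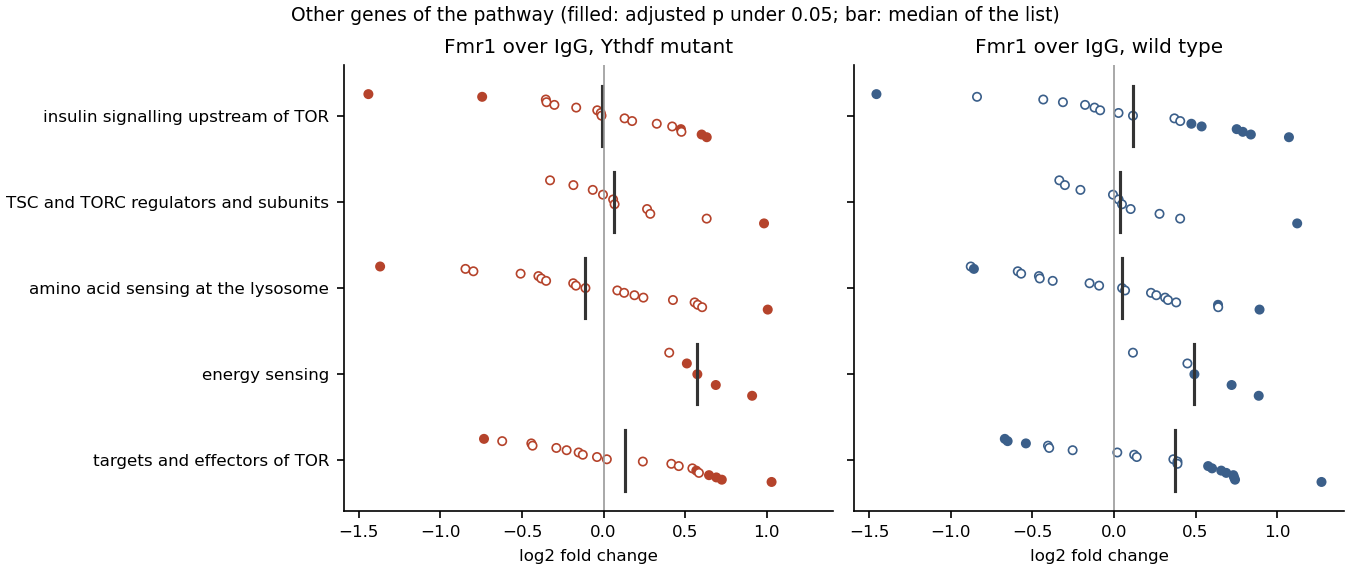
Log2 fold change of Fmr1 over IgG (horizontal axis) for every tested gene of 5 lists, in mutants (left) and wild type (right); filled points passed at an adjusted p under 0.05 and bars are list medians. Energy sensing has the highest median, 0.57 in mutants and 0.49 in wild type, and the insulin list holds the gene farthest to the left, Ilp2.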

How the data were processed

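RNA immunoprecipitation libraries of Fmr1, IgG and input were analysed from 1 table of raw gene counts as the authors deposited it; per the labels' protocols they were strand-specific and depleted of ribosomal RNA, with the first read carrying sequence and the second a molecular identifier. The submitters' processing notes name bcl2fastq 2.20, Trim Galore and STAR. The genome build, the counting tool, its use of strand and whether identifiers were collapsed are not given in the sources used here, so reads may include PCR copies. Gene names and exon lengths came from the Ensembl annotation of the reference used here, which may differ from the authors' build, and no coordinates are printed.

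Entries that name no gene held 23.8% to 74.7% of a library and were left out. Genes passed edgeR's filterByExpr (minimum count 10, minimum total 15). A model of 6 groups was fitted to 27 libraries in edgeR 4.0.16 (R 4.3.3), with TMM scaling and the robust quasi-likelihood test, on counts as deposited (common coefficient of variation 0.281), and was tested on simulated data. DESeq2 1.42.0 and limma 3.58.1 (voom) were alternatives. The scope of p-values is the spread between these libraries: the submitters call them biological replicates, but Fmr1, IgG and input of a lysate share their heads. Same-numbered libraries were taken as pairs where every correlation of their deviations was over 0.1; those in mutants were 0.36 to 0.50 for Fmr1 with IgG and 0.27 to 0.49 for Fmr1 with input, and 0.25 to 0.45 for Fmr1 with input in wild type. No 2 libraries were identical. Depth limits the IgG libraries most.

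The members, lists and tests were chosen with earlier results of these data known. Of 76 listed pathway names, 4 did not match the annotation. All members are named in every comparison. Other pathway genes are named from the 3 with the smallest p of their list and comparison among those that passed, and the 5 genes most like Tsc1 by Pearson's r of log2 CPM (mean CPM of at least 10). Tsc1 was tested between inputs only. No sequences are shown, since none of the tables used here holds any.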

Additional observations from a re-analysis of the deposited data

Results flagged for a closer look

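Of 54 groups of 4 or 5 libraries, each the values of a member in a group, 3 held a library set far apart from the others by Dixon's test. Chance alone sets apart about 1 in 20 such groups.

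Thor in the mutant IgG library of replicate 7 stood at 132.476 CPM, while the other mutant IgG libraries lay between 35.9 and 38.7 CPM. In the mutant input of the same number Thor stood at 130.335 CPM, against 38.6 to 42.1 CPM in the other mutant inputs. Its Fmr1 library of that number, at 77.7 CPM beside 21.3 to 33.1 CPM, was not set apart by the test. In the wild type libraries of replicate 7 Thor stood at 31.6 CPM in Fmr1, 35.8 CPM in IgG and 38.2 CPM in input, within the range of the other wild type replicates in IgG, input and Fmr1. Akt stood at 105.281 CPM in the wild type input of replicate 1, and at 78.9 to 82.9 CPM in the other wild type inputs. That input was the shallowest of its group, with 585 reads of Akt. The causes were not tested.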

How the results depend on the processing

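A value within 1 SE of 0 both in the fit reported and in the alternative was taken as having no direction. Of 90 member values, 59 kept their direction and their side of the threshold under every alternative run. Members called in Fmr1 over IgG in mutants were 2 in the fit reported, 0 under RLE, under upper-quartile factors, under the stricter filter on low counts, with only the groups compared in the fit, and without replicates 2 and 3; 1 under DESeq2 and 1 under voom; 4 with replicates 2 and 3 alone, 5 with the replicate block, and 0 to 4 with 1 library left out. Of all genes, 20.4% were called there in the fit reported, 17.3% under RLE, 17.5% under upper-quartile factors and 20.0% under the stricter filter. With only the groups compared it was 9.05%, and 2.85% without replicates 2 and 3. DESeq2 called 20.7%, voom 23.4%, replicates 2 and 3 alone 26.1% and the replicate block 23.8%. Without replicates 2 and 3, Akt in Fmr1 over IgG in mutants was -0.13. In that fit 1 member was called for Fmr1 over IgG in wild type (18.0% of all genes) and 4 for Fmr1 over input in mutants (18.9%). For IgG over input 1 was called in mutants (0.308% of all genes) and 3 in wild type (22.9%). With replicates 2 and 3 alone, 1 member was called between inputs (9.50% of all genes). In IgG over input in mutants 5 were (21.7% of all genes), and Akt was -0.049 there. The replicate block called 1 between inputs, Thor at 0.84 (edgeR adjusted p = 0.025), where 10.9% of all genes were called. Same-numbered inputs, however, did not deviate together (lowest correlation -0.081). Nor did wild type Fmr1 and IgG (-0.048) or IgG and input (0.095 in mutants, 0.022 in wild type). The replicate block changed no call beyond those given. With 1 library left out, calls in IgG over input in wild type were 3 to 5, and Thor in mutants spanned -1.26 to 0.052 over IgG (highest without mutant IgG replicate 7), -1.17 to 0.082 over input (highest without mutant input replicate 7) and -0.63 to 0.82 in IgG over input, while Tsc1 in IgG over input in mutants spanned -0.039 to 0.17. The causes of these shifts were not tested. Fits without replicates 2 and 3 hold fewer libraries than the fit reported, and fits with those replicates alone hold fewer still. Depth limits the IgG values most: members had as few as 2 reads in an IgG library.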

Other observations

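Thor was not alone in standing high in the mutant libraries of replicate 7. The 5 genes with the pattern most like that of Thor over the 27 libraries, by Pearson's r of log2 CPM, were CG15673 (r = 0.86), Irc (0.85), Mtap (0.84), ced-6 (0.83) and BomS3 (0.83), a choice made after the values of Thor were seen. Irc encodes an immune-regulated catalase, ced-6 an adaptor for the engulfment of dying cells, and BomS3 a secreted peptide induced by infection. In mutant replicate 7 Irc stood at 161 CPM in Fmr1, 185 CPM in IgG and 146 CPM in input, while the other mutant libraries lay at 40.6 to 62.9, 66.1 to 78.3 and 65.2 to 91.5 CPM. BomS3 stood at 21.2, 62.4 and 94.3 CPM in these 3 libraries, beside 1.87 to 9.41, 7.75 to 32.6 and 11.2 to 21.0 CPM in the other mutant libraries. Ced-6 stood at 270.3, 289.8 and 292 CPM, beside 121 to 169, 129 to 176 and 185 to 194 CPM. All 5 genes were higher in mutant replicate 7 than in the other mutant replicates in each kind of library. In wild type replicate 7, Irc stood at 66.8 CPM in Fmr1, 52.6 CPM in IgG and 72.5 CPM in input, beside 33.5 to 45.6, 31.6 to 84.5 and 40.3 to 59.8 CPM in the other wild type libraries. CG15673, Mtap and BomS3 were also highest in replicate 7 among the wild type Fmr1 libraries, at 7.61, 14.7 and 6.56 CPM, beside at most 5.31, 11.4 and 4.83 CPM in the others. Mtap and BomS3 were highest there among the wild type inputs too, at 17.9 and 21.9 CPM, beside at most 15.7 and 20.0 CPM. No gene of the 5 was highest in replicate 7 among the wild type IgG libraries. The correlations include these 3 mutant libraries, and what set that replicate apart was not tested.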
